A study of Mus musculus with 10 samples.

Results

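The metabotropic glutamate receptors are the G protein-coupled receptors of glutamate, the main excitatory transmitter of the brain. Here 6 of these receptor genes are described, Grm2, Grm3, Grm4, Grm5, Grm7 and Grm8, out of 19938 genes with a value. They were chosen as a family by symbol, and each is read through the brightest probe set that the platform annotation assigns to that symbol alone. Each of the 6 had 1 such probe set. Whole-brain RNA came from 5 transgenic mice (Tg), which overexpress Glo1 from a bacterial artificial chromosome, and from 5 wild-type littermates (WT), with 1 single-channel Affymetrix gene array per sample. Both groups were naive, group-housed adult males on a C57Bl/6J background, and the labels call the samples of a group biological replicates. The number of transgenic founder lines is not given in the sources used here. Glo1 encodes glyoxalase 1, the enzyme that clears methylglyoxal, a by-product of glycolysis.

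The family is divided by sequence and coupling. Group I, here Grm5, acts through Gq and phospholipase C and sits mostly behind the synapse. Group II, Grm2 and Grm3, and group III, Grm4, Grm7 and Grm8, act through Gi/o, lower cyclic AMP and often restrain transmitter release from nerve terminals; Grm3 is also made by glia. Grm4 is known for its abundance in cerebellar granule cells, where it sits on parallel fibre terminals. The comparison of genotypes asks whether any receptor transcript differs in brains that overexpress Glo1. One WT array, low in cerebellar transcripts, was used as a gauge of which receptors move with them.

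The labels were checked on Glo1, which read 11.88 to 12.23 log2 units on the Tg arrays and 10.27 to 10.75 on the WT arrays. Tg exceeded WT by 1.51 log2 units (SE 0.093, adjusted p = 3.50e-05 by limma). Array medians over the 28944 probe sets tested lay between 7.95 and 8.05. WT replicate 2 stood apart: 37.3% of genes were higher there than on all 9 other arrays, against 2.95% to 12.5% for the other arrays taken singly. The share lower than on all others was 16.3%, against 4.72% to 15.6% for the other arrays. On that array the pituitary genes Gh and Prl were also 5.94 and 6.48 log2 units above the mean of the other WT arrays. At least 1 Tg array was likewise high in the pituitary list, whose mean reached 10.37 in Tg against 6.21 to 6.40 on the other WT arrays. The neuronal markers had a list mean of 12.27 on WT replicate 2, lower than the 12.33 to 12.40 on the 9 others. These markers were bright on every array but do not show which brain regions a sample held. Receptor differences are given with and without WT replicate 2.

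All 6 receptors were read in whole brain, with mean log2 values over the 10 arrays in the upper 40% of genes. The mean was 11.69 for Grm3 and 11.67 for Grm5. It was 10.33 for Grm4 and 10.20 for Grm7, with Grm2 at 9.68 and Grm8 at 8.88. Grm3 and Grm5 overlapped from array to array, at 11.56 to 11.86 and 11.57 to 11.74. Grm4 lay above Grm7 on 9 arrays, at 10.32 or more against 10.24 or less, and below it on WT replicate 2. Brightness depends on the probes as well as on the transcript, so this order is one of probe sets and does not rank transcript numbers. For the same reason groups I, II and III were not ranked by level.

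**Figure D1:**
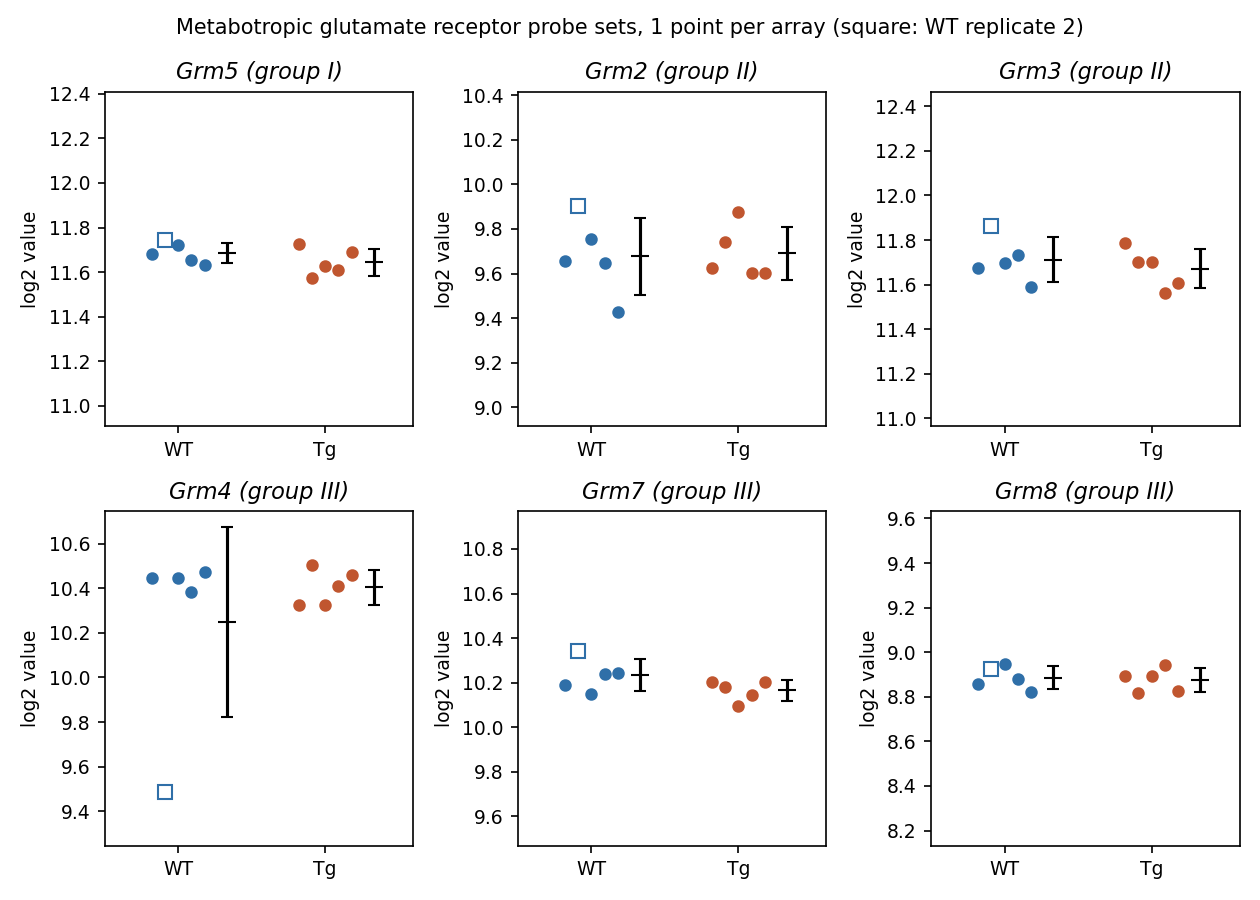
Log2 value of each receptor (vertical axis, log2 units, every panel spanning the same range) on the 5 WT and 5 Tg arrays, 1 point per array, with the group mean and SD beside them as a bar. The open square is WT replicate 2, which read 9.49 for Grm4 while the other 9 arrays lay between 10.32 and 10.50; in all 6 panels the WT and Tg values overlap.

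None of the 6 receptors differed detectably between Tg and WT brain. By limma, 0 of 6 passed an adjusted p of 0.05, where 0.0345% of probe sets did (0.038% without WT replicate 2, and again 0 of 6 receptors). Likewise 0 of 6 had an unadjusted p under 0.05, where 2.21% of probe sets did. In the exact permutation test over the 252 assignments of arrays to groups, 0 of 6 had a p under 0.05 either. All 6 receptors had overlapping groups, and the groups did not overlap for 0.471% of genes. Without WT replicate 2 all 6 still overlapped, where 3.34% of genes did not. Their median difference was -0.025 log2 units, beside -0.0034 over all genes. Of the 6, 4 had a lower mean in Tg, Grm5, Grm3, Grm7 and Grm8, beside 10520 of 19938 over all genes. Without WT replicate 2 the median was -0.015, beside 0.0060 over all genes. In that fit 5 of 6 had a lower mean, beside 9318 of 19938 over all genes, with Grm3 at -0.0011 and Grm8 at -0.0015.

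Grm5, the group I receptor, couples to phospholipase C and is abundant in cortex, hippocampus and striatum. It read 11.72, 11.57, 11.63, 11.61 and 11.69 log2 units on Tg replicates 1 to 5. On WT replicates 1 to 5 it read 11.68, 11.74, 11.72, 11.66 and 11.63. The groups overlapped, with the lowest reading on Tg replicate 2 and the highest on WT replicate 2. The difference was -0.043 (SE 0.043, limma adjusted p = 0.9998, two-sided exact permutation p = 0.254). Its 95% interval runs from -9.08% to 3.69% in brightness, and without WT replicate 2 the difference was -0.028 (SE 0.042).

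Grm2 and Grm3 form group II, both inhibitory on adenylyl cyclase. Grm2, found on terminals and in cerebellar Golgi cells, read 9.63, 9.74, 9.88, 9.60 and 9.60 in Tg and 9.66, 9.90, 9.75, 9.65 and 9.43 in WT. It was the most variable of the 6 among the 9 arrays without WT replicate 2, with an SD of 0.13 log2 units against 0.047 to 0.072 for the other 5. Its lowest reading was that of WT replicate 5 and its highest that of WT replicate 2, so the Tg values lay within the WT range. The difference was 0.013 (95% interval -0.17 to 0.20, exact permutation p = 0.921). Without WT replicate 2 it was 0.069 (-0.098 to 0.24).

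Grm3, which neurons and astrocytes both make, read 11.79, 11.70, 11.70, 11.56 and 11.61 in Tg. In WT it read 11.67, 11.86, 11.70, 11.73 and 11.59. WT replicate 2 was again the highest array. The Tg minus WT difference was -0.039 (SE 0.059, exact permutation p = 0.532) and -0.0011 (SE 0.052) without WT replicate 2. Markers of astrocytes, of which 6 were measured, had a median difference of 0.010.

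Grm4, the group III receptor of parallel fibre terminals, read 10.32, 10.50, 10.32, 10.41 and 10.46 in Tg and 10.45, 9.49, 10.45, 10.38 and 10.47 in WT. With all arrays its mean was 10.40 ± 0.080 in Tg and 10.25 ± 0.43 in WT (SD, n = 5 each), a difference of 0.16 (SE 0.16, exact permutation p = 0.786). Without WT replicate 2 the WT mean was 10.44 ± 0.038 (SD, n = 4), and the direction turned, to -0.034 (SE 0.047, limma adjusted p = 0.779, exact permutation p = 0.437). The interval for Grm4 narrowed from -13.2% to 43.0% with all arrays to -9.11% to 4.999% without that array.

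Grm7, a receptor of low glutamate affinity at the active zone of many terminals, read 10.21, 10.18, 10.10, 10.14 and 10.20 in Tg. In WT it read 10.19, 10.34, 10.15, 10.24 and 10.24. Of the 6 receptors it had the lowest limma p, 0.170 before adjustment, at a difference of -0.067 (95% interval -0.17 to 0.033, adjusted p = 0.9998). The exact permutation p was 0.119, and without WT replicate 2 the difference was -0.039 (SE 0.040, exact permutation p = 0.246).

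Grm8, a presynaptic receptor and the dimmest of the 6 here, read 8.89, 8.82, 8.89, 8.94 and 8.83 in Tg and 8.86, 8.92, 8.95, 8.88 and 8.82 in WT. These values covered the same span in both groups, 8.82 to 8.94 in Tg and 8.82 to 8.95 in WT. The difference was -0.011 (95% interval -0.10 to 0.082, exact permutation p = 0.730), and -0.0015 (SE 0.042) without WT replicate 2. It changed sign under 6 of 19 alternatives and stayed within -0.028 and 0.013.

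**Figure D2:**
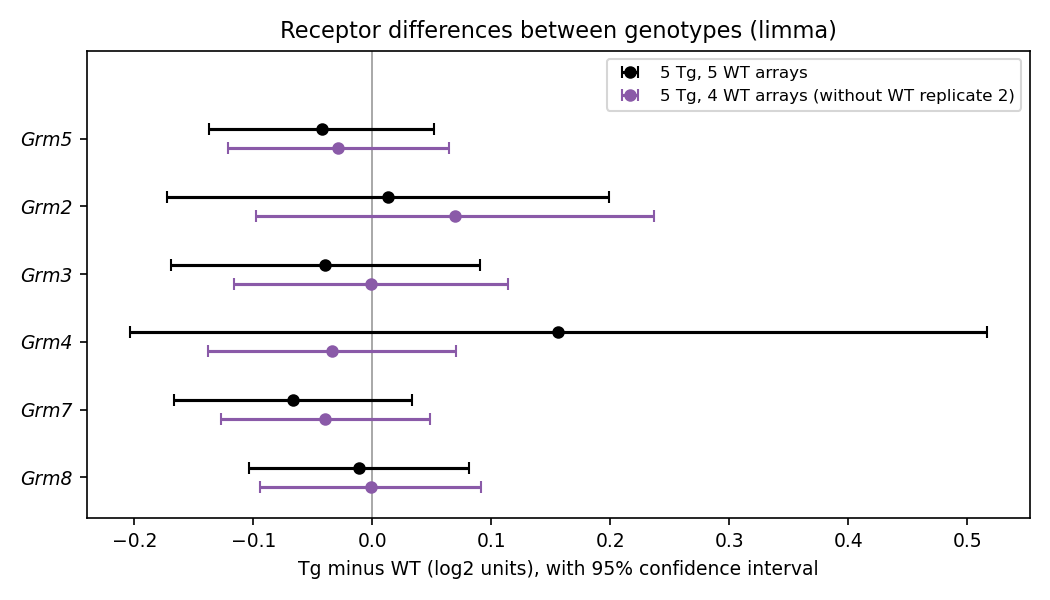
Tg minus WT difference of each receptor (horizontal axis, log2 units) with its 95% confidence interval from limma, over all 10 arrays (black) and without WT replicate 2 (purple). All intervals include 0, and that of Grm4 shrinks from -0.20 to 0.52 to a span of -0.14 to 0.070 once WT replicate 2 is left out.

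Grm4 lies on chromosome 17, as does Glo1, and Grm7 and Grm8 lie on chromosome 6, which also carries Ndufa4 and Foxp2, both lower in Tg. By gene order in GRCm38.p6, 49 measured genes separate Grm4 from Glo1. Its measured neighbours Gm10505 and AI413582 differed by 0.16 (SE 0.071) and -0.040 (SE 0.058), both with a limma adjusted p of 0.9998. Ndufa4 differed by -0.79 (SE 0.050, limma adjusted p = 3.67e-05) and Foxp2 by -0.64 (SE 0.044, limma adjusted p = 4.94e-05). Between Foxp2 and Grm8 there were 41 measured genes, and between Foxp2 and Grm7 there were 644. The neighbours of Grm8, Pot1a and Mir592, differed by -0.073 and -0.077, and those of Grm7, Edem1 and Lmcd1, by 0.016 and -0.040, none past the threshold.

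WT replicate 2 separated Grm4 from the rest of the family. There Grm4 was 0.95 log2 units below the mean of the other 4 WT arrays, so its brightness was 51.7% of theirs. The other 4 WT arrays had an SD of 0.038 for Grm4. Among the 6 receptors it alone was lower by at least 0.5 log2 units, as were 1.85% of genes, and it alone lay below all 9 other arrays, as 16.3% of genes did. In all, 52 of 19938 genes were as far below or further. As this is 1 array without a replicate, these are values and not a test.

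WT replicate 2 was picked as low in cerebellar transcripts, so low markers of cerebellar cells there describe that choice and are no separate result. All 10 measured granule cell markers and all 9 measured Purkinje cell markers were lower by at least 0.5 log2 units and below all 9 other arrays. Over all genes 1.85% were lower by that much and 16.3% lay below all 9. The granule cell list averaged 8.55 on WT replicate 2 against 10.55 to 10.86 on the others, and the Purkinje cell list 8.99 against 10.36 to 10.60. The steepest were Gabra6, a GABA-A receptor subunit of granule cells, at 2.75% of the other WT arrays, the cerebellin Cbln3 at 5.60% and the transcription factor Neurod1 at 12.1%. Among Purkinje cell markers they were Ppp1r17 at 7.03%, Car8 at 10.7% and Pcp2 at 28.1%. Grm4, at 51.7%, lay within the range of both lists, 2.75% to 70.0% for granule cells and 7.03% to 60.9% for Purkinje cells. It fell less than the median of either list, 24.3% for granule cells and 48.4% for Purkinje cells. In bulk RNA, fewer cells of a type and less RNA per cell cannot be told apart, and brightness without target also sets a floor under each percentage.

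**Figure D3:**
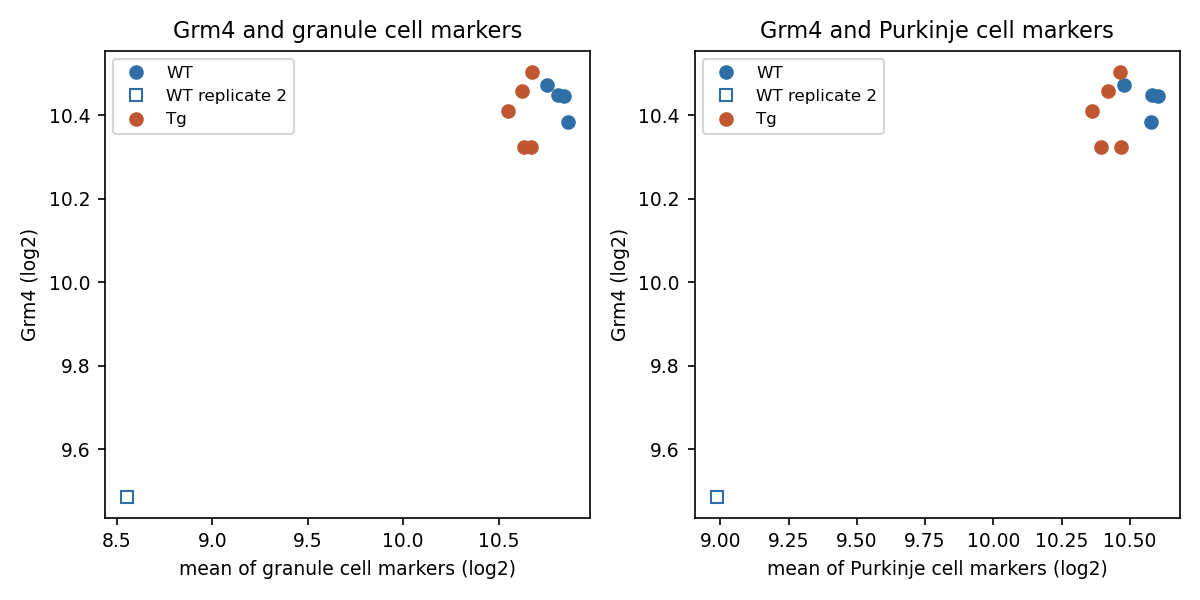
Grm4 (vertical axis, log2 units) against the mean of the granule cell markers (left) and of the Purkinje cell markers (right), 1 point per array, with WT in blue, Tg in orange and WT replicate 2 as an open square. That array lies alone at 9.49 for Grm4 and 8.55 for the granule cell list; among the other 9 arrays the granule cell means of Tg lie below those of WT, while Grm4 overlaps.

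The other 5 receptors were higher on WT replicate 2 than on the mean of the other WT arrays. Grm2 was 0.28 log2 units higher, Grm3 0.19, Grm7 0.14, Grm5 0.070 and Grm8 0.048. The median over all genes was 0.079 higher on that array, and 37.3% of genes read above all 9 other arrays, as Grm2, Grm3, Grm5 and Grm7 did. The values of Grm5 and Grm8 were below the median of all genes, and they turned to -0.014 and -0.035 when each array was centred on its median. Grm2, Grm3 and Grm7 stayed higher under the 3 other scalings, with lowest values of 0.20, 0.11 and 0.053. So both members of group II stayed higher under those scalings, while in group III Grm4 read lower, Grm7 stayed higher and Grm8 had no settled direction. Of the lists from other regions, the 8 striatal markers had a median of 0.27 and the 7 cortical and hippocampal ones 0.12 on this array. The medians were 0.047 for 4 thalamic and 0.061 for 8 olfactory bulb markers, although Calb2, Eomes and Reln of those lists, named after their values were seen, stood at -0.78, -0.90 and -0.62. Among cell types, the median was 0.18 for 3 markers of oligodendrocyte precursors and 0.013 for 4 of oligodendrocytes. For 5 microglial markers the median was 0.051, and for 4 endothelial ones 0.068. The median was -0.065 for 6 astrocyte markers, 3 of them below all 9 other arrays, while Grm3 read higher. The 5 neuronal markers had -0.17 and the 4 choroid plexus markers -0.28, each with 3 below all 9. Over all genes 16.3% lay below all 9. Going the other way, 1 astrocyte, 1 neuronal and 0 choroid plexus markers lay above all 9. The part of these lists in the receptor values was not tested.

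Grm4 and the granule cell markers were set side by side between genotypes without WT replicate 2. The granule cell list averaged 10.55 to 10.67 on the Tg arrays and 10.76 to 10.86 on the other WT arrays, and all 10 members had a lower Tg mean, with a median difference of -0.21. All Tg values lay below all WT values for 5 of the 10, where 1.24% of genes did so, and 8 of 10 had an unadjusted limma p under 0.05, as did 11% of probe sets and 0 of the 6 receptors in that fit. Adjusted over all probe sets, 0 of the 10 passed. On the same arrays all 9 measured Purkinje cell markers also had a lower Tg mean. Of these, 6 had an unadjusted limma p under 0.05 and 0 passed after adjustment. Markers of a list were read in the same samples, so they are not separate observations. Grm4 differed by -0.034 in the same arrays, with values that overlapped. Over all 10 arrays the granule cell list went the other way. All 10 members had a higher Tg mean, with a median difference of 0.19, and 0 had an unadjusted limma p under 0.05. All 9 Purkinje cell markers likewise had a higher Tg mean. WT replicate 2 is low in these same markers, so the direction of their difference depends on whether that array is kept. A test of Grm4 against the list was not made.

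The genes whose values ran most like a receptor's were sought among 11962 brighter genes, by the Pearson r of log2 values after subtracting group means. Over all 10 arrays Grm4 ran most like Pvalb, the parvalbumin of Purkinje cells and interneurons (r = 0.991), and Il16 (r = 0.987), a cytokine gene. Both were low on WT replicate 2, at -0.86 and -1.89 log2 units from the other WT arrays. For Grm4, 238 genes had an r over 0.9, among them all 19 cerebellar markers searched. Over the 9 arrays without WT replicate 2 the closest were Arhgef2 and Mib2 (r = 0.964 and 0.963), 32 genes exceeded 0.9, and these held 0 of the 238 and 0 of the 19. The likeness of Grm4 to cerebellar genes therefore rests on that array.

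For the other receptors the closest genes also changed with that array. Over 10 arrays they were Tom1l1 and Pdha1 for Grm5, Cyp4f13 and Cyb561a3 for Grm2, Olig1 and Mboat1 for Grm3, Nin and Gm266 for Grm7, and Timm29 and Nxph1 for Grm8, with r from 0.913 to 0.972. Over 9 arrays they were Tgoln1 and Ccdc25 for Grm5, Wwox and Fam131b for Grm2, Slco1a4 and Me3 for Grm3, Cplane1 and Nsmaf for Grm7, and Zfp619 and Lrba for Grm8, with r from 0.924 to 0.990. Each is the highest of 11962 values from a few arrays and is given as a description.

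Genes that act with the receptors were compared next, 60 measured of 66 listed. By limma 0 of 60 passed, in either direction, over all probe sets (0.0345% of which did), and 0 of 60 had an unadjusted p under 0.05 (2.21%). Without WT replicate 2, 0 of 60 passed and 4 had an unadjusted p under 0.05, beside 11% of probe sets. Their differences ran from -0.092 to 0.071, with a median of -0.010, and 39 of 60 had a lower mean in Tg, beside 10520 of 19938 over all genes. Without WT replicate 2 it was 37 of 60, beside 9318 of 19938.

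Of 21 measured Gq effectors and scaffolds of group I, the lowest p values belonged to Plcb1, a phospholipase C, at -0.041 (95% interval -0.12 to 0.040) and Ncdn, the norbin that binds Grm5, at -0.045 (-0.15 to 0.057). Of 26 Gi/o effectors and partners of groups II and III they belonged to Kcnj9, a G protein-gated potassium channel subunit, at -0.080 (-0.20 to 0.036) and Adcy8, an adenylyl cyclase, at 0.071 (-0.037 to 0.18). Among 13 genes that supply or clear glutamate and the group II agonist N-acetylaspartylglutamate (NAAG), they belonged to Folh1, which splits NAAG, at -0.079 (-0.24 to 0.081) and to Rimkla, which makes it, at 0.045 (-0.054 to 0.14).

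On WT replicate 2, 4 of the 60 were lower by at least 0.5 log2 units, beside 1.85% of all genes, and 1 was higher by that much, beside 1.45%. Rgs8, a regulator of G protein signalling, stood at -1.07, Homer3, a Homer scaffold, at -0.79, and Slc1a6, a glutamate transporter of Purkinje cells, at -0.72; these 3 also stand in the Purkinje cell list. Plcb4, a phospholipase C that many Purkinje cells use, stood at -0.61. The 1 that was higher was Arc, an activity-induced gene named after its value was seen, at 0.57. Gnai3, a Gi subunit, stood at -0.44 and Slc17a8, a vesicular glutamate transporter, at 0.36, neither past that step.

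**Figure D4:**
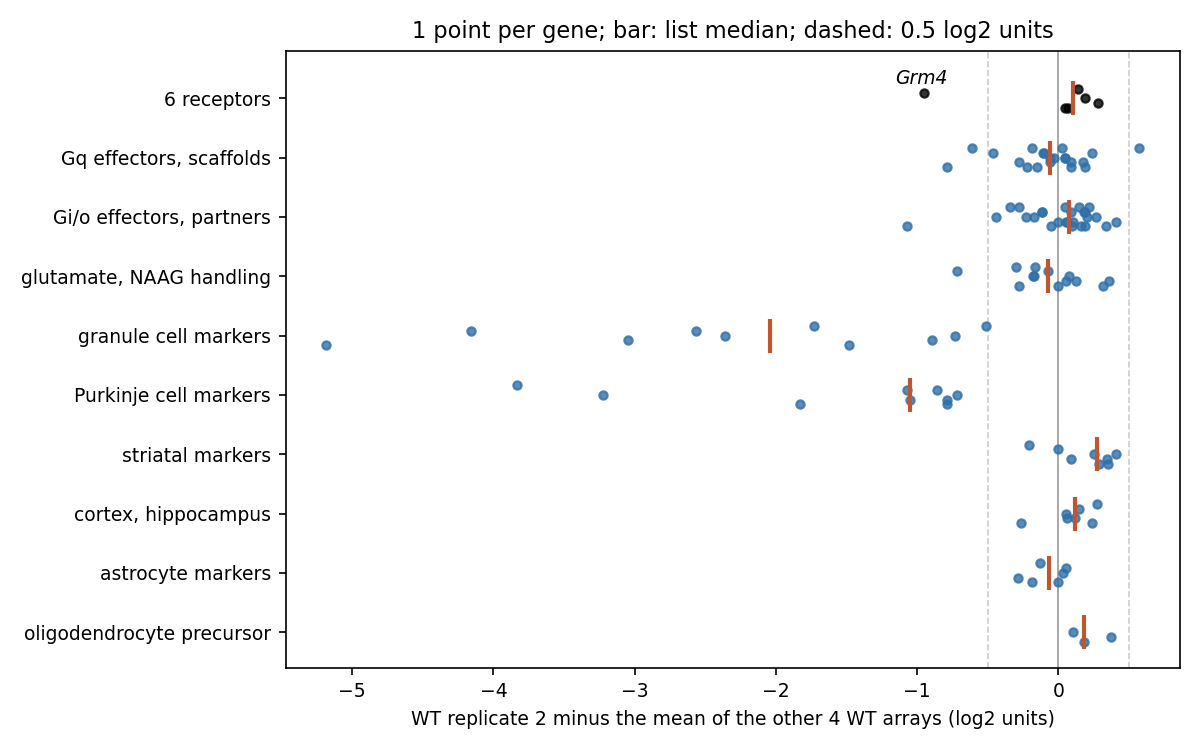
WT replicate 2 minus the mean of the other 4 WT arrays (horizontal axis, log2 units) for the receptors, for the lists of genes that act with them and for marker lists, 1 point per gene, with the list median as an orange bar and dashed lines at 0.5 log2 units. Grm4 lies at -0.95 beside receptors at 0.048 to 0.28, in the range of the cerebellar lists, whose medians are -2.04 for granule cells and -1.05 for Purkinje cells.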

How the data were processed

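Probe sets carry log2 expression values that the authors made with Affymetrix Expression Console 1.1.2, as the submitters' processing notes name it. No source used here gives its background and normalization settings. Deposited log2 values ran from 3.28 to 14.7 and were used as they stood. Control rows (6612 of 35556) were left out. Genes came from the platform annotation, and symbols were updated through Entrez identifiers (21698 of 21789 probe sets with 1 gene matched). Fits used limma 3.58.1 with R 4.3.3 (lmFit and eBayes on genotype alone), and p-values were adjusted by Benjamini-Hochberg over 28944 probe sets. Exact permutation tests were two-sided and are not adjusted over the 6 receptors. The fit was first tested on simulated data with independent noise, equal in spread across arrays. These simulated data held no outlying array such as WT replicate 2. Arrays measure brightness, so folds can be understated, and the number of arrays limits precision. No source names litters, so p-values measure only the spread between these samples.

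The receptors, gene lists and the use of WT replicate 2 were chosen with earlier results of these data known. Named are all receptors; for each the 2 genes most like it; in each list of acting genes the 2 of lowest p and the 2 furthest off on WT replicate 2; 3 markers of each cerebellar list; Glo1; and chromosomal neighbours. Alternatives covered scaling, dim probe sets, variance models, array weights, the replicate number, the summary per gene, control rows and leaving out arrays.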

Additional observations from a re-analysis of the deposited data

Results flagged for a closer look

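The value of Grm4 on WT replicate 2, 9.49 log2 units, lay far from the other WT values: its gap to the nearest of them was 0.909 of the range of the 5 WT arrays, where 0.710 is the 95% critical value of Dixon's test for 5 values. Both groups of all 6 receptors were looked at, 12 groups in all, and this was the 1 value found. Chance alone flags about 1 in 20 groups. That rate does not apply to WT replicate 2, which was picked beforehand as low in cerebellar transcripts. The value is therefore only flagged, and Dixon's rule is not a test of Grm4 on this array.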

How the results depend on the processing

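Under the 19 alternatives to the fit 0 receptors and 0 of the genes acting with them passed, as before, and 9 to 11 probe sets were called against 10. The receptors' lowest adjusted p under any of them was 0.688, for Grm7. The differences of Grm5, Grm3 and Grm7 kept their sign under all 19. With single arrays left out Grm4 ran from -0.034 to 0.21, negative without WT replicate 2; Grm2 ran from -0.049 to 0.069, negative without Tg replicate 3 or WT replicate 5; and Grm8 ran from -0.028 to 0.0040. Array weights gave -0.014 for Grm4 and 0.0044 for Grm8, which was also positive under quantile normalization (0.013) and cyclic loess (0.0069). On WT replicate 2, Grm4 stayed between -1.03 and -0.91 and was the 1 receptor past 0.5 log2 units under all 9 alternatives; median centring gave -0.014 for Grm5 and -0.035 for Grm8. The cause of these shifts was not tested. The labels do not say whether same-numbered samples are paired. Same-numbered arrays correlated from -0.472 to 0.453 in their deviations from the group means. The closest WT array bore the same number for Tg replicates 2 and 3, and another number for Tg replicates 1, 4 and 5. These correlations cannot decide whether samples were paired. With the replicate block 11 probe sets and 0 receptors were called.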
